A study of Camelus dromedarius with 4 samples.

Results

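The 10 genes of antigen presentation described here were followed through the winter and summer transcriptomes of the dromedary supraoptic nucleus (SON), the hypothalamic cell group that makes the neurohypophysial hormones. They were taken by gene symbol from the table of season means and make up 10 of its 18152 symbols: the class II genes HLA-DRB1, HLA-DMA, HLA-DMB, HLA-DOA, HLA-DOB and CIITA, and the class I and peptide transport genes B2M, TAP1, TAP2 and TAPBP. All 10 had a mean of at least 10 normalised reads in both seasons. The animals were healthy adult male camels of the Tergui breed aged 6 to 10 years, with 2 libraries of total RNA for winter and 2 for summer. The winter animals were slaughtered in January at El Oued and the summer animals in June at Ouargla, so that season, place and day of collection cannot be told apart. The labels give no treatment other than season.

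Major histocompatibility complex (MHC) class II molecules carry peptides from endosomes to the surface of antigen-presenting cells, where helper T cells read them. In brain tissue the class II genes are known mainly from microglia, perivascular macrophages and infiltrating leukocytes, and CIITA is the transactivator that switches them on. Class I molecules, which pair with beta-2 microglobulin (B2M), present peptides that TAP1 and TAP2 pump into the endoplasmic reticulum, and they are made by most cells. RNA from a dissected nucleus is a mixture, in which fewer cells of a type and less RNA per cell cannot be told apart.

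The table gives each gene only as a season mean of reads divided by a size factor, which corrects for library depth. Because every read adds a fixed step to the mean, the whole reads in the 2 libraries of a season could be solved for. A single solution was found in both seasons for 6 of the 10 genes, and 2 or 3 winter solutions for CIITA, TAP1, TAPBP and B2M. The libraries are called by season and by size factor: winter A (1.33) and winter B (0.946), summer A (0.922) and summer B (0.877). The letters do not name a replicate of the labels and pair nothing across seasons. The values are not divided by gene length, so that levels are compared between libraries and never between genes. Reads on gene models in the 4 count files ranged from 4379162 to 6902037. Summer library A stood apart. It had 0 reads for 282 of the 7677 genes fitted, against 5 to 12 in each other library, and 33.7% of genes differed by 2-fold or more between the summer libraries, against 15.8% between the winter libraries. The differences of the 10 genes are therefore also given without it.

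Among the class II genes the season means differed by at most 1.33-fold. The season means of HLA-DOA were 73.3 in winter and 71.8 in summer, those of HLA-DOB 84.1 and 94.4, those of HLA-DMA 181 and 215, and those of HLA-DMB 83.8 and 112. HLA-DRB1 (74.8 and 66.2) and CIITA (205 and 178) had the higher mean in winter. None of these differences was larger than the spread between libraries (0 passed the tests given below).

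HLA-DRB1 encodes the beta chain of the HLA-DR molecule, which holds the peptide. It had 26 reads in winter A, 123 in winter B, 17 in summer A and 100 in summer B, or 19.6, 130, 18.4 and 114 normalised reads. One library of each season was thus high and the other low, and the seasons overlapped fully. The libraries differed 6.63-fold in winter and 6.18-fold in summer. Of 2044 genes with winter means from 62.8 to 125.6, 0.196% were at least as uneven as this in winter, and of 2153 such genes in summer 4.37% were. In both seasons together, 18 of 7677 genes (0.234%), HLA-DRB1 included, were at least as uneven. The fitted difference was 0.14 on the log2 scale (winter over summer) with an SE of 0.95, and its 95% interval ran from -2.07 to 2.36. It followed whichever library was left out: 1.99 without summer B, -1.74 without winter B, and -0.63 without summer A. Without summer B only the low summer library remained, and without winter B only the low winter library. Reads of DRB-like gene copies may be shared by the counting, which was not measured here.

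HLA-DMA and HLA-DMB form HLA-DM, which removes the invariant chain fragment and loads peptide. HLA-DMA had 132 and 231 normalised reads in winter A and B, and 266 and 164 in summer A and B. HLA-DMB had 98.9 and 68.7 in winter, and 132 and 91.2 in summer. For both genes the lower summer library lay below the higher winter library. HLA-DMA was lower in winter by 0.25 ± 0.42 (log2, SE) and HLA-DMB by 0.41 ± 0.38. Without summer A, the HLA-DMA difference became 0.14 and that of HLA-DMB became -0.12.

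HLA-DOA and HLA-DOB form HLA-DO, which restrains HLA-DM. HLA-DOA had 64.1 and 82.5 normalised reads in winter and 66.1 and 77.5 in summer, the narrowest spread among the class II genes with a single solution. The difference was 0.02 ± 0.37 and became -0.08 without summer A. HLA-DOB had 113 and 55.0 in winter, and 75.9 and 113 in summer, so its highest libraries were one of each season. The difference was -0.15 ± 0.45, and -0.42 without summer A.

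CIITA had 229 and 127 normalised reads in summer. The winter mean allowed 2 solutions, 211 and 200, or 350 and 60.3. The seasons overlapped in both. Of the 2044 reference genes, 87.9% were at least as uneven between the winter libraries as the first solution and 0.294% as the second. The season difference was 0.21 ± 0.38 with the first and 0.22 ± 0.72 with the second, and 0.70 with either when summer A was left out. Without summer B it turned to -0.16 and -0.15, and without winter A the second solution gave -1.56. The winter mean of CIITA, like those of TAPBP and B2M below, lies above the range of the reference genes, so that these shares compare genes of unequal read depth.

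**Figure D1:**
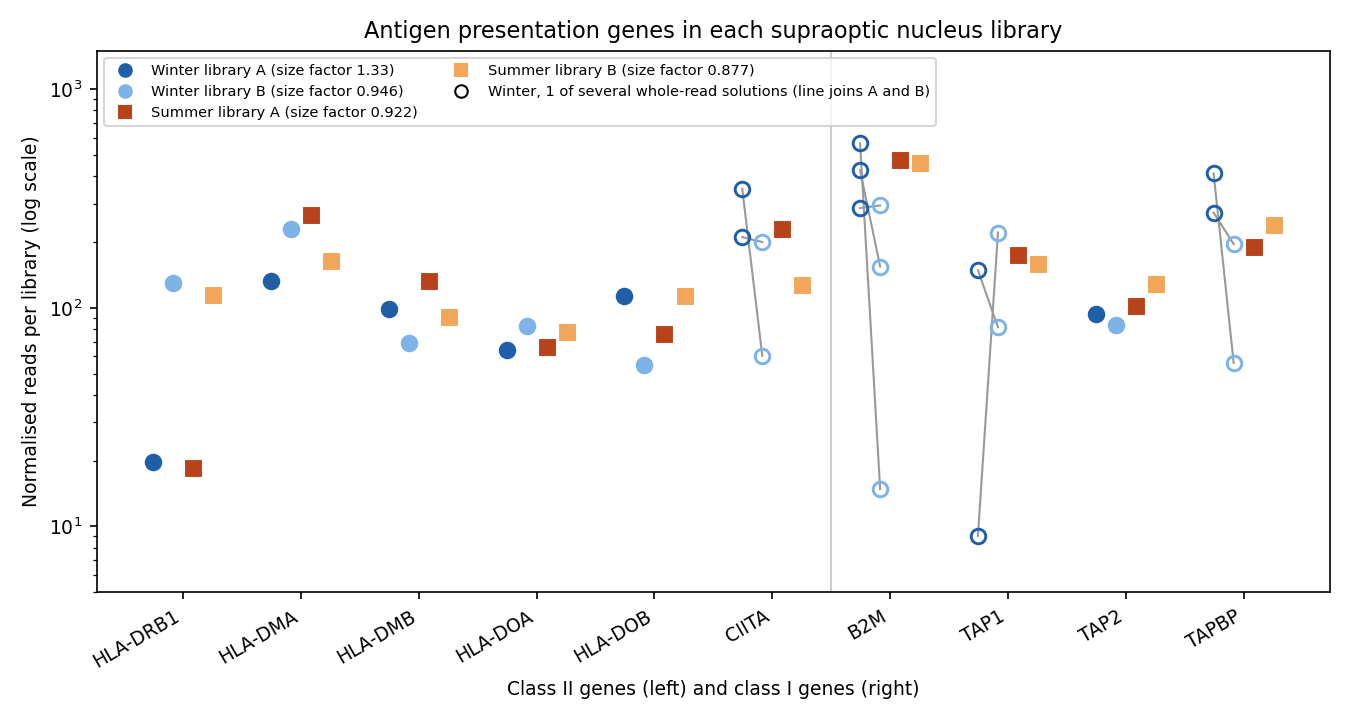
Normalised reads (log axis) of the 10 genes in the 4 libraries: winter circles, summer squares, open circles where the winter mean allows several whole-read solutions, with a line joining winter A to winter B in each. HLA-DRB1 lies near 19.6 and 18.4 in the A libraries and at 130 and 114 in the B libraries, while B2M and TAP2 in summer lie above most of their winter values.

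The class I genes had higher means in summer, TAPBP excepted, and none passed a test. B2M, the light chain of every class I molecule, had season means of 290.0 in winter and 467 in summer, a 1.61-fold difference and the largest among the 10 genes. TAP1 had 115 and 167 (1.45-fold), TAP2 88.6 and 115 (1.30-fold), and TAPBP, the tapasin that bridges the transporter to class I molecules, 234 and 215.

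B2M had 474 and 460 normalised reads in the summer libraries. Its winter mean allowed 286 and 294, or 426 and 154, or 565 and 14.8. Both summer libraries were above both winter libraries in the first 2 solutions and not in the third, in which the winter libraries would differ 38.2-fold. Of the reference genes, 93.6%, 2.45% and 0.0489% were at least as uneven as the respective solutions. The differences were -0.69 ± 0.35, -0.68 ± 0.52 and -0.67 ± 1.10, with adjusted p-values from 0.983 to 0.984 in edgeR's quasi-likelihood fit. Without summer A they ranged from -0.67 to -0.66. The winter libraries moved them more: without winter A the values were -0.67, -1.60 and -4.97, and without winter B -0.71, -0.13 and 0.27, so that the sign turned in the third solution.

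TAP1 had 175 and 158 normalised reads in summer. In winter it had either 149 and 81.4, with both summer libraries above, or 9.06 and 221, with overlap. The second split is 24.4-fold, and 0.0978% of reference genes were as uneven, against 11.6% for the first. The differences were -0.52 ± 0.39 and -0.57 ± 0.99, and -0.46 and -0.48 without summer A. Without winter A they were -1.03 and 0.41, and without winter B -0.16 and -4.18, with a change of sign in the second split.

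TAP2, the partner subunit, had 124, 79, 94 and 113 reads, or 93.6 and 83.5 normalised reads in winter and 102 and 129 in summer. Both summer libraries lay above both winter libraries. Of the 6 genes with a single solution it was the only one whose seasons did not overlap, while 30.5% of the 7677 genes fitted did not overlap and 17.2% had summer above winter. The difference was -0.38 ± 0.34 (SE) and stayed between -0.54 and -0.20 when each library was left out.

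TAPBP had 190 and 241 normalised reads in summer, and 272 and 196 or 412 and 56.1 in winter. The seasons overlapped either way. The differences were 0.12 ± 0.35 and 0.14 ± 0.75, and both turned negative (-0.04 and -0.03) without summer A, as they did without winter A (-0.14 and -1.94).

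**Figure D2:**
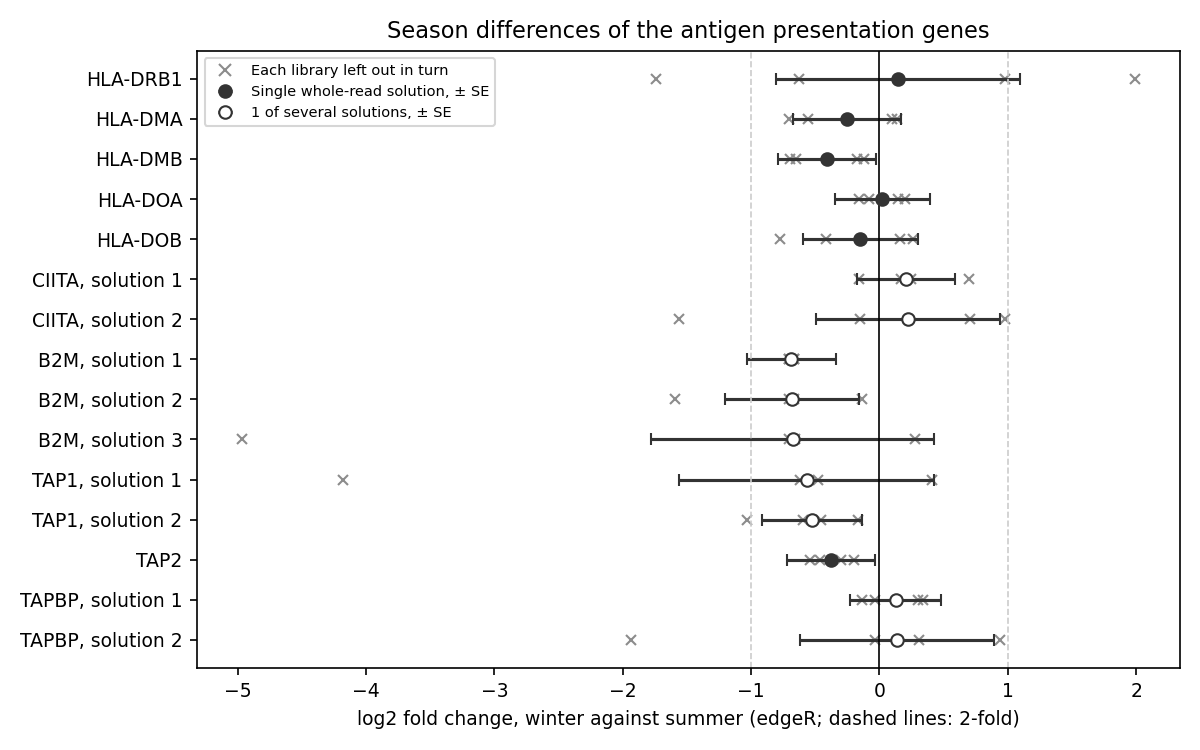
Fitted log2 fold change, winter against summer, for each gene and, where the winter mean allowed several, each solution (points with SE bars, 2 libraries a season), with crosses for the value when each library is left out and dashed lines at 2-fold. All points lie between -0.69 and 0.22, while the crosses reach -4.97 for the third solution of B2M, -4.18 for the first drawn of TAP1, and from -1.74 to 1.99 for HLA-DRB1.

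Across the 10 genes, 4 had the higher mean in winter and 6 in summer, and 0 differed by more than 2-fold, a difference seen in 6.82% of all 13808 symbols with a mean of at least 10. The higher mean was in summer for 53.8% of those symbols. The median log2 ratio was -0.21 for the 10 genes and -0.04 for all symbols. Among fitted differences, the median was -0.20 for the 6 genes with a single solution and -0.11 for all 7677 genes fitted. In the quasi-likelihood fit across 7677 genes, 0 of the 6 genes with a single solution had a Benjamini-Hochberg adjusted p under 0.05 (edgeR; lowest adjusted p = 0.983), and 0 had an unadjusted p under 0.05. The same counts were 0 with edgeR's exact test, DESeq2 and limma-voom. Of all genes fitted, 0% passed the adjusted threshold, 1.98% the unadjusted threshold, and 1.67% an unadjusted p under 0.05 with more than 2-fold, here called the 2-fold rule. Of the 9 solutions of the other 4 genes, 0 had an unadjusted p under 0.05. The common biological coefficient of variation was 0.459. At that variation, 2 of 200 genes simulated with a 4-fold change passed the adjusted threshold, and 151 passed the 2-fold rule. With a simulated 2-fold change, 0 and 65 of 200 did. The 2-fold rule was also passed by 352 unchanged genes in the first simulation and 326 in the second. The counts of 0 therefore do not show that the seasons were alike. With 2 libraries against 2, an exact two-sided permutation test cannot go below p = 0.33. The 95% intervals of all 6 genes with a single solution held 0, the narrowest being that of TAP2, from -1.17 to 0.42. Those of HLA-DMA, HLA-DMB and HLA-DOB reached -1.23, -1.29 and -1.19. A difference past 2-fold thus lay within the interval of every one of them but HLA-DOA (-0.85 to 0.89).

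**Figure D3:**
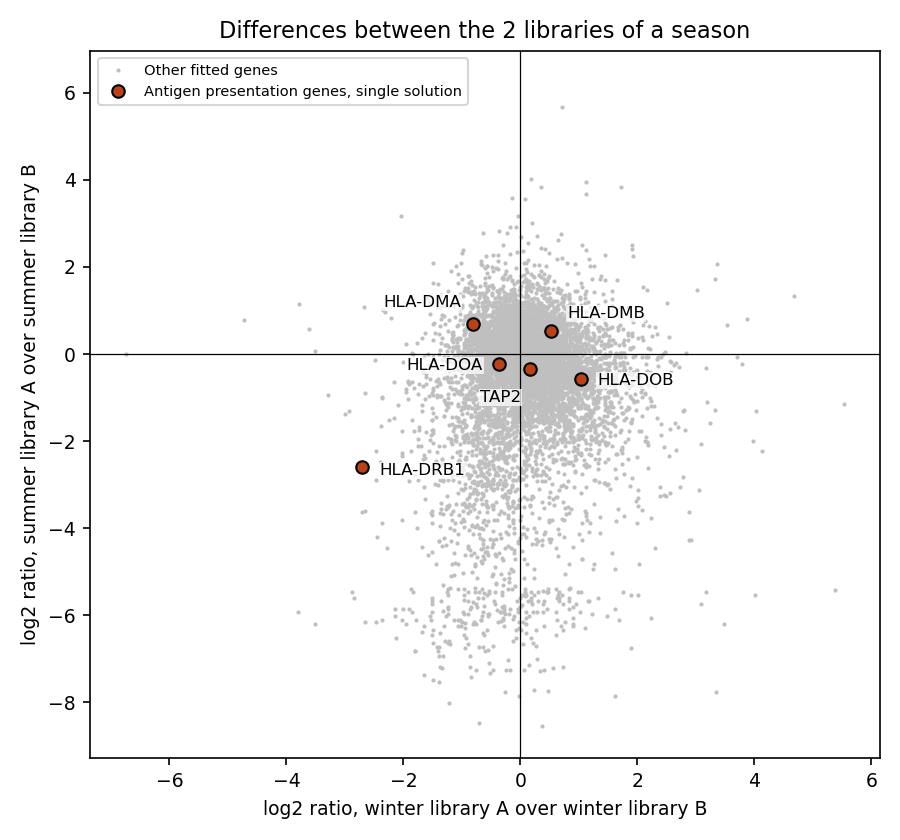
Log2 ratio of library A to library B in winter (horizontal) and in summer (vertical) for the 7677 genes fitted (grey) and the 6 genes with a single solution (red). HLA-DRB1 lies apart, with library A 6.63-fold below library B in winter and 6.18-fold in summer, and the grey band far below 0 on the vertical axis holds genes with few or 0 reads in summer A.

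The other class II chains were sparsely represented. HLA-DRA and HLA-DQA1 are not listed under these symbols, and CD74, the invariant chain, is listed without means. HLA-DQB1, a DQ beta chain, had 1 read in winter A, 126 in winter B, and 0 in both summer libraries. One winter library thus held nearly all reads, and the winter mean was at least 20.1-fold higher than in summer, counted against a floor of 3 reads per summer library. It passed the 2-fold rule (adjusted p = 0.983, edgeR), but not without winter B, with DESeq2 or with limma-voom. The call thus rests on 1 library. HLA-DPA1 had 5, 6, 5 and 21 reads in winter A, winter B, summer A and summer B. RFX5, a factor that binds class II promoters, had 168, 86, 55 and 104 reads in the same order (0.30 ± 0.43, turning to -0.12 without summer A).

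Of the genes that feed class I, the immunoproteasome subunit PSMB9 had 44, 32, 56 and 59 reads in winter A, winter B, summer A and summer B, with both summer libraries above both winter libraries after scaling (-0.93 ± 0.43). In the RefSeq annotation of another dromedary assembly, mCamDro1.pat, PSMB8 and PSMB9 flank TAP1, and TAP2 is the next gene beyond PSMB8. PSMB8 had 22, 12, 3 and 9 reads (1.14 ± 0.91), a difference of the other sign at low counts. NLRC5, the class I transactivator, had 98, 50, 57 and 62 reads (-0.05 ± 0.39), and its sign changed with scaling by total reads. TAPBPL, a tapasin-like peptide editor, had a difference of -0.17 ± 0.40, and of 0.07 without summer A. Genes with season means alone were the chaperones CALR (1354 in winter, 1552 in summer) and PDIA3 (658 and 666), the trimming peptidase ERAP1 (304 and 337), and the endosomal CTSS (356 and 513) and IFI30 (122 and 98.2). CD86, a costimulatory ligand, had 2 to 11 reads per library.

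CD1E, which helps load lipids onto CD1 molecules, had 21, 14, 29 and 60 reads. Both summer libraries were above both winter libraries after scaling. The difference was -1.69 ± 0.64 (adjusted p = 0.983, edgeR). It passed the 2-fold rule in the 9 other settings tried, but not when winter A, winter B or summer B was left out. In all, 25 related genes were fitted, and 1 passed the 2-fold rule higher in winter (HLA-DQB1) and 1 higher in summer (CD1E), against 0.847% and 0.821% of all genes. 0 passed an adjusted p of 0.05 and 3 an unadjusted p of 0.05, the third being PSME2, a proteasome activator subunit named after its values were seen (114, 58, 170 and 92 reads; -0.96 ± 0.41). Of the 25 fitted, 9 had both summer libraries above both winter libraries, PSMB9 and CD1E among them, and 3 the reverse. Over all genes fitted, 17.2% and 13.3% did. Of 43 related genes with a mean of at least 10, 10 had the higher mean in winter and 33 in summer, with a median log2 ratio of -0.14. Over all symbols, 53.8% had the higher mean in summer and the median was -0.04. The lists were not tested as sets.

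**Figure D4:**
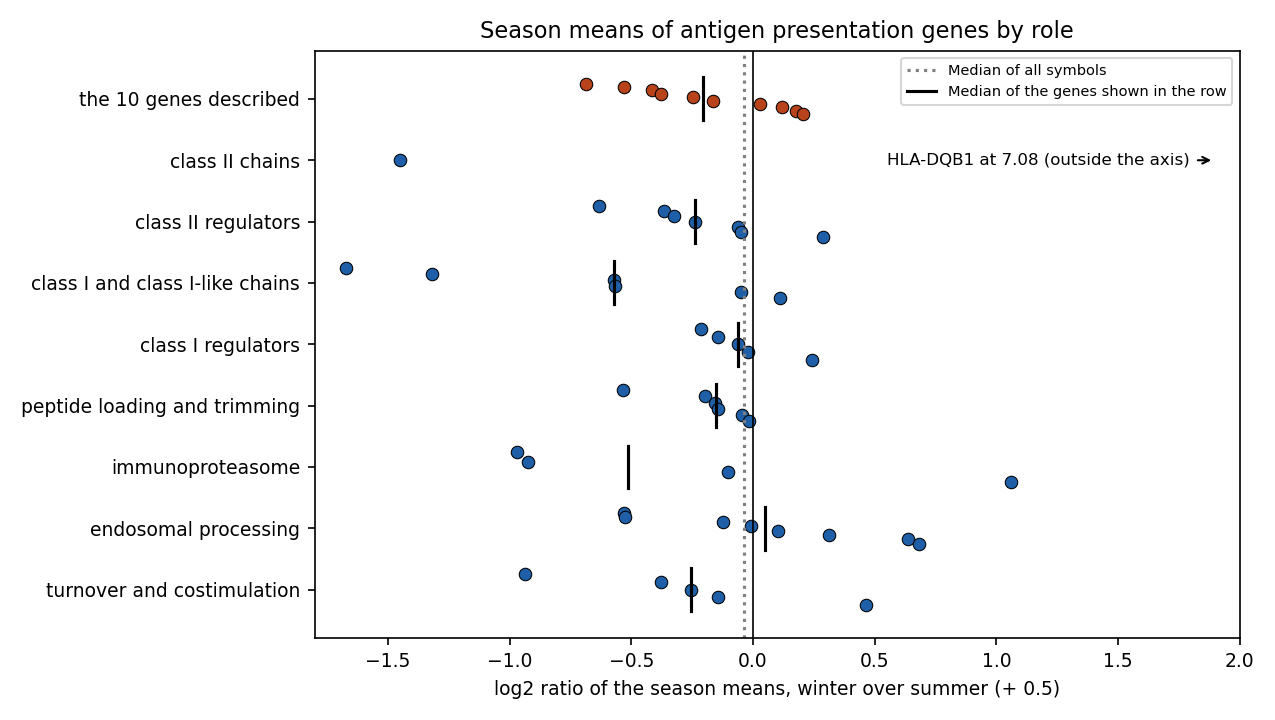
Log2 ratio of the season means, winter over summer, with 0.5 added to each mean, for the 10 genes (red) and related genes with a mean of at least 10 (blue), with row medians as bars and the median of all symbols, -0.04, dotted. The red points run from -0.69 (B2M) to 0.21 (CIITA), and HLA-DQB1 lies outside the axis at 7.08, a value that depends on the 0.5 added.

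Markers of the cells that could carry these genes were measured beside them. OXT, the oxytocin precursor of magnocellular neurones, had means of 621 in winter and 592 in summer, while AVP is not listed under that symbol. SIM1, POU3F2 and OTP summed to 187 and 79.3 normalised reads in winter A and B, and 120 and 162 in summer A and B. In winter A and B, SIM1 had 63.4 and 13.7, OTP 79.2 and 21.2, and POU3F2 44.5 and 44.4. The blood gene HBB had 37.7 and 113 in winter A and B, and 118 and 119 in summer A and B. The summed season means of 10 microglial genes were 7060 in winter and 9136 in summer. Those of 5 perivascular macrophage genes were 251 and 476, of 5 T cell genes 47.8 and 91.1, of 5 B cell genes 443 and 542, of 4 dendritic cell genes 94.3 and 101, and of 5 endothelial genes 1215 and 1292. B2M, TAP1 and TAP2 and these sums of season means were higher in summer, but the genes within a sum were not uniform. Of the 10 microglial genes, 7 had the higher mean in summer. C1QB (2278 in winter, 3476 in summer) and C1QC (1230 and 1778) had the largest means. The 3 others were higher in winter: CSF1R (106 and 56.2), TMEM119 (74.9 and 59.0) and ITGAM (1194 and 1165). Library by library, where reads could be solved singly, the sums of 4 microglial genes were 382 and 416 normalised reads in winter A and B, and 427 and 258 in summer A and B. Those of 4 perivascular macrophage genes were 86.8, 114, 82.4 and 274 in the same order, and of 5 T cell genes 49.0, 46.5, 71.6 and 111. Of these 3 sums, that of the T cell genes alone had both summer libraries above both winter libraries. Of 19 markers fitted, 0 passed the 2-fold rule (edgeR) and 0 had an unadjusted p under 0.05. Over all genes fitted, 1.67% and 1.98% did, so that counts of 0 among 19 tell little about the markers. MS4A1, a defining B cell gene, was near 0, with 2, 5, 0 and 8 reads in winter A, winter B, summer A and summer B. Among macrophage genes, MRC1 had 64, 78, 13 and 201 reads and was low in summer A and high in summer B, as HLA-DRB1 was, but did not share its winter split. The part of these cells in the differences above was not tested.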

How the data were processed

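Stranded total RNA libraries depleted of ribosomal RNA were sequenced as paired 100-base reads. The authors aligned them with TopHat to their own assembly and deposited raw HTSeq read counts per gene model (versions not given in the sources used here). Gene models are not paired with symbols in the files used here, so these counts gave depth only: 64989 models, 20.7% to 27.8% of tallied alignments on models. Named genes came from the table, in which the authors deposited a signal for each season: HTSeq reads scaled with DESeq size factors, then averaged over 2 libraries. Its edgeR fold changes and p-values were not used.

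Each mean was solved for whole reads in 2 libraries. Of 16053 symbols with means, 4 were left out as listed more than once. All other 16049 solved, 9918 with 1 solution in both seasons. Of means under 20, 100% in each season were whole reads within the rounding of the 6 deposited digits.

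The 7677 single-solution genes reaching a mean of 10 in either season were fitted with edgeR 4.0.16 (R 4.3.3; estimateDisp, glmQLFit with legacy off, glmQLFTest, season as the only term), scaled by the size factors, with Benjamini-Hochberg adjustment. Genes with several solutions were fitted once with each. Both steps were tested on simulated data. Alternatives were limma-voom (limma 3.58.1), DESeq2 1.42.0, edgeR's exact test, other scalings and filters, and leaving out each library. With 2 libraries a season, p-values set the season difference against the spread between these libraries, estimated in part across all genes fitted. No other animals entered them. Floors cover counting error only.

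The 10 genes, the related lists and the markers were chosen with earlier results of these data known. The text names the 10 genes, a fixed set of related genes whatever their values, and any other listed gene past the 2-fold rule. MARCH1, in that set, could not be looked up, since its symbol was changed to a date in the table. Values of 2 listed genes are not reported here. Figures were drawn with matplotlib 3.10.9.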

Additional observations from a re-analysis of the deposited data

How the results depend on the processing

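Of 53 differences of the 6 single-solution genes under settings other than leaving out a library, 51 kept their direction, 2 reversed with limma-voom (HLA-DOA to -0.0019, HLA-DRB1 to -0.039), and 0 had an adjusted p under 0.05. NLRC5 reversed to 0.040 with scaling by total reads. Related genes past the 2-fold rule fell from 2 to 1 with DESeq2, with limma-voom and with a mean of at least 10 in both seasons, each time CD1E remaining, and ranged from 0 to 4 when each library was left out. With all libraries kept, 0 of the 6 single-solution genes (5 with low-mean genes only) passed an adjusted p of 0.05 or the 2-fold rule in any setting. For these genes, fits with a library left out are given below as differences only. CIITA, TAP1, TAPBP and B2M were tested with the main settings alone. With a tolerance 10 times as wide, single solutions fell from 6 to 3 of the 10 genes.

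When each library was left out, the log2 difference ranged from -0.70 to 0.14 for HLA-DMA, -0.70 to -0.12 for HLA-DMB, -0.16 to 0.20 for HLA-DOA, -0.78 to 0.26 for HLA-DOB, -1.74 to 1.99 for HLA-DRB1, -0.12 to 0.87 for RFX5, -0.32 to 0.16 for NLRC5 and -0.59 to 0.17 for TAPBPL. Over all solutions of the other 4 genes it ranged from -1.56 to 0.98 for CIITA, -4.18 to 0.41 for TAP1, -1.94 to 0.94 for TAPBP and -4.97 to 0.27 for B2M. The season then left with 1 library was assumed to vary like the other. Genes past the 2-fold rule over all 7677 numbered 128, but 97 with the exact test, 60 with DESeq2, 83 with limma-voom, 80 with a mean of at least 10 in both seasons, 35 without winter A, 49 without winter B, 1121 without summer A and 1173 without summer B. Genes past an adjusted p of 0.05 numbered 0, but 1 with the exact test, 1 with DESeq2, 292 without summer A and 228 without summer B. The cause was not tested. No paired analysis was possible, because the winter and summer libraries come from different animals, slaughtered in different seasons. The replicate numbers in the labels pair nothing across seasons, and the solved libraries carry none.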

Other observations

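The 17 other genes as uneven as HLA-DRB1 in both seasons were looked up after its values were seen. NGFR, the low-affinity neurotrophin receptor, had 216 reads in winter A, 20 in winter B, 12 in summer A and 229 in summer B. PRPH, the neuronal intermediate filament peripherin, had 106, 7, 0 and 94. SLC18A3, the vesicular acetylcholine transporter, had 38, 2, 0 and 32. ALOX15, a lipoxygenase, had 5, 26, 0 and 5. PCDH8, a protocadherin, had 148, 15, 7 and 50. Most of the rest had fewer than 30 reads in every library. The letters pair no libraries across seasons.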
